A study of Mus musculus with 5 samples.

Results

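Apolipoproteins are the protein parts of the particles that carry cholesterol and triglyceride in blood. The 10 apolipoprotein genes Apoa1, Apoa2, Apoa4, Apob, Apoc1, Apoc2, Apoc3, Apod, Apoe and Apoh were followed by gene symbol and had 14 of the 22626 probe sets (the groups of short probes that read 1 transcript) on Affymetrix arrays of mouse aorta. Of the 10 genes, 8 had 1 probe set, Apoa4 had 2 and Apoa1 had 4. Male mice of strain BKS.Cg-m +/+ Lepr db/J were compared by genotype at the leptin receptor gene Lepr. The homozygous db/db mice cannot signal through the long receptor isoform and grow obese and diabetic, and the heterozygous db/+ mice of the same colony served as controls. All were 16 to 20 weeks old and on regular chow, per the labels. The arrays numbered 3 for db/db (numbers 1 to 3) and 2 for db/+ (numbers 2 and 3), each a separate pool of RNA from 6 aortas stripped of adventitia and periaortic fat. The mutation is present in every tissue from birth, and a pool hides the spread between single mice.

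In the liver and intestine, apolipoproteins are loaded onto lipid to make very low density lipoprotein, chylomicrons and high density lipoprotein (HDL). Apolipoprotein B is the structural core of the triglyceride-rich particles, apolipoproteins A-I and A-II are the main proteins of HDL, and the C proteins set how fast lipoprotein lipase clears triglyceride. Apolipoprotein E, a ligand of the LDL receptor family, is also made outside the liver by macrophages, smooth muscle cells and adipocytes, where it takes part in cholesterol efflux. Apolipoprotein D is a lipocalin, unrelated in sequence to the others, made by fibroblasts and glia. Apoa1, Apoa2, Apoa4, Apob, Apoc3 and Apoh were therefore taken as the 6 liver-restricted genes, and Apoe and Apod as the 2 genes made by vessel wall cells. Apoc1 and Apoc2, made by the liver and by macrophages, were kept apart.

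Signals are MAS5 intensities on a linear scale, and each signal belongs to its own probe set, so that levels were not compared between genes. A log2 change is the mean of log2(signal + 16) in db/db minus that in db/+, given with limma's standard error (SE), and it understates the change of low signals. Probe sets with a mean signal over the 5 arrays above 40.6 were tested. A call is a limma adjusted p under 0.05. Of the 14 apolipoprotein probe sets, 8 were tested, standing for 7 genes, and 0 were called, where 0.0958% of the 13574 probe sets tested were called (13, all lower in db/db, and 1 without db/+ replicate 2 or without db/+ replicate 3). At an unadjusted limma p under 0.05, 4 of the 8 were lower and 1 was higher, beside 4.19% and 3.97% of all probe sets tested. The arrays did not overlap between genotypes at 6 of the 8, beside 25.0% of all probe sets tested. Of the 6, 4 were lower and 2 higher in db/db, beside 12.0% and 13.0% of all. Apoa2, Apoe, Apod and Apoc3 were the 4 lower ones, and both tested probe sets of Apoa1 were the higher ones. Both Apoa1 probe sets had a db/+ mean under 40.6 (34.2 and 26.55) and passed the filter only through their db/db signals. The dimmer of them had a mean of 40.96 over the 5 arrays and was not tested without db/db replicate 1. That these 2 were among the 8 thus depended on their being higher in db/db, so that counting them gives no support.

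**Figure D1:**
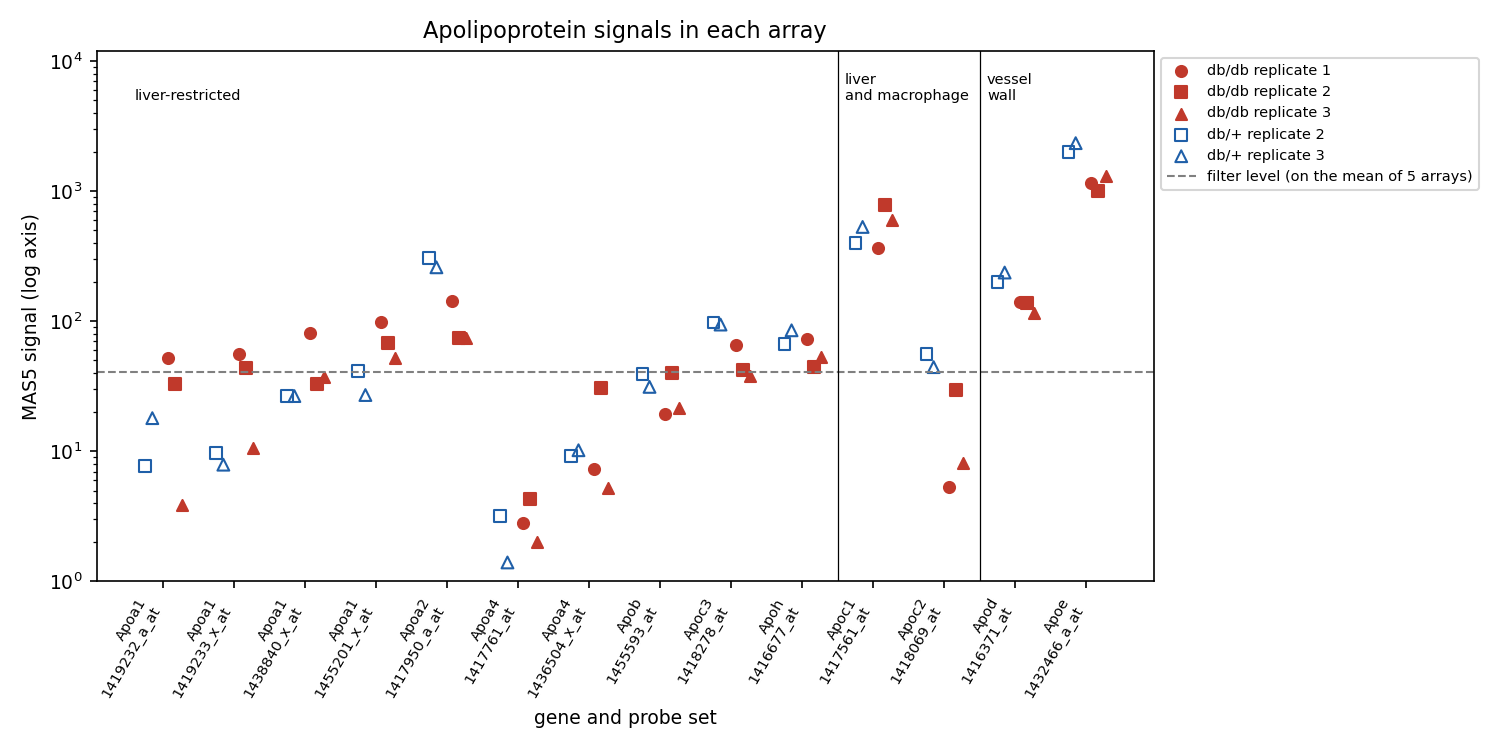
MAS5 signal (log axis) of the 14 apolipoprotein probe sets, 1 point per array, with db/+ as open blue and db/db as filled red symbols, and marker shape by replicate number. The dashed line is the filter level of 40.6, applied to the mean of the 5 arrays. Points of Apoa2, Apoc3, Apoe and Apod from db/db lie below both db/+ points, and those of the brightest Apoa1 probe set lie above them.

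RefSeq promoter windows (assembly GRCm38.p6) were present for 8 of the 10 genes, and the 250 bases before a start site are shown for Apoa2, whose signal differed most among those tested, Apoa1, which went the other way, and Apoc2, whose window held 2 of the motifs searched. Capitals mark any match, on either strand, to AGGTCA (a core motif of the liver factor HNF4 and other nuclear receptors), GTTAAT (a core motif of the liver factor HNF1) or TATAAA (the TATA box). The table held 2 starts for Apoa2, and both are shown. The windows are chr1:171221314-171221563, chr1:171224804-171225053 and chr9:46228380-46228629 on the plus strand, and chr7:19677942-19678191 on the minus strand, in the order Apoa2 upstream start, Apoa2 downstream start, Apoa1 and Apoc2.
Apoa2 upstream start: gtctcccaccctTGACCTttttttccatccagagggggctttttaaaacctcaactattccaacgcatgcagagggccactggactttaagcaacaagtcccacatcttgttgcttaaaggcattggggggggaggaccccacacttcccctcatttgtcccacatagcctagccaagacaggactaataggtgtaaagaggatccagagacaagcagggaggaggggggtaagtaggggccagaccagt
Apoa2 downstream start: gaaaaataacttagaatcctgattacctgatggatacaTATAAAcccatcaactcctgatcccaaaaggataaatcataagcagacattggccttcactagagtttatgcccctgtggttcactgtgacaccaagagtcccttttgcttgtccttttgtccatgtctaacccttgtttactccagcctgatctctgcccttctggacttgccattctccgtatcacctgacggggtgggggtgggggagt
Apoa1: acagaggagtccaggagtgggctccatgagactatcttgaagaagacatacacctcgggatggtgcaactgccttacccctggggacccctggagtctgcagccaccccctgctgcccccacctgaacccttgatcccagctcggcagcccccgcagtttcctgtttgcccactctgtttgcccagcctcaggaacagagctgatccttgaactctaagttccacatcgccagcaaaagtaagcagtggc
Apoc2: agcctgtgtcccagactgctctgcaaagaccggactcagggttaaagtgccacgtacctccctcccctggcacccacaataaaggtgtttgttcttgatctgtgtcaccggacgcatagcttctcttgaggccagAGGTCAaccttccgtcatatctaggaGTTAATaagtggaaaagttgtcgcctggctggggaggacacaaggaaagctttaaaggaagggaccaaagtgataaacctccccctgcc
The upstream window of Apoa2 held 1 match to AGGTCA and its downstream window 1 to TATAAA. This TATAAA lay near the end of the window farthest from the start site. A match is to the letters only, and no use of them as an element was tested. The window of Apoc2 held 1 match each to AGGTCA and GTTAAT, and that of Apoa1 held 0 matches to any of the 3. Of 32851 windows of this length in the table, 14% held AGGTCA, 6.43% GTTAAT and 12.4% TATAAA. No match says only that these letters are not in these windows.

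Apoa2, which encodes the second most abundant protein of HDL, had the largest difference among the 8 tested probe sets. Its signals were 306.1 and 259.8 in db/+ replicates 2 and 3, and 143.6, 74.1 and 74.5 in db/db replicates 1, 2 and 3. All 3 db/db pools lay below both db/+ pools, and db/db replicate 1 lay nearest to them. The mean was 97.4 ± 40.01 (SD, n = 3) in db/db and 283 ± 32.7 (SD, n = 2) in db/+, 2.91 times lower, with a log2 change of −1.45 (SE 0.26, 95% interval −2.05 to −0.85, limma adjusted p = 0.12). Without db/db replicate 1 the log2 change was −1.72 and passed (limma adjusted p = 0.019), and it passed with array weights as well (−1.50, adjusted p = 0.043). The limma adjusted p was 0.64 without db/+ replicate 2, 0.57 without db/+ replicate 3 and 0.32 with no filter, and it ranged from 0.019 to 0.64 over the alternatives.

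Next to Apoa2 on chromosome 1, the RefSeq gene table places Fcer1g, the Fc receptor gamma chain of myeloid cells, on one side and Tomm40l, a mitochondrial import gene, on the other. Fcer1g had 139.9 and 172.1 in db/+ and 31.7, 65.4 and 28 in db/db (log2 change −1.63, SE 0.27, limma adjusted p = 0.084). Tomm40l, named for its position, differed by 0.36 (SE 0.25, limma adjusted p = 0.79). Neither neighbour passed the threshold, and the arrays did not overlap at Fcer1g but did at Tomm40l.

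Apoc3 encodes an inhibitor of triglyceride clearance and lies between Apoa1 and Apoa4 on chromosome 9. Its signals were 98 and 94.3 in the db/+ pools, and 65.7, 42.1 and 38 in db/db replicates 1, 2 and 3. As for Apoa2, all db/db pools were below the db/+ pools and db/db replicate 1 was the highest of them. The log2 change was −0.82 (SE 0.20, limma adjusted p = 0.28), from 96.2 ± 2.62 (SD, n = 2) to 48.6 ± 15.0 (SD, n = 3). Apoh, the gene of beta-2-glycoprotein I, a plasma protein that binds phospholipid, had 66.6 and 85.2 in db/+ and 72.8, 44.5 and 53.1 in db/db. Its groups overlapped through db/db replicate 1, and its log2 change of −0.35 (SE 0.20, limma adjusted p = 0.74) had a 95% interval from −0.81 to 0.12.

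Apoa1, which encodes the main protein of HDL, pointed the other way in all 4 of its probe sets. At the brightest, signals were 41.3 and 27.1 in db/+ and 98.8, 68.1 and 51.9 in db/db, so that every db/db pool was above both db/+ pools. The log2 change there was 0.81 (SE 0.24, limma adjusted p = 0.40), from 34.2 ± 10.0 (SD, n = 2) to 72.9 ± 23.8 (SD, n = 3). The second tested probe set had 26.5 and 26.6 in db/+ and 81.2, 33.2 and 37.3 in db/db (log2 change 0.58, SE 0.28, limma adjusted p = 0.66), with db/db replicate 1 far above the others. Both are of a type whose probes can also read other sequences, and both had a db/+ mean under the filter level. The 2 Apoa1 probe sets under the filter had log2 changes of 0.52 and 0.97 that were not tested. The groups overlapped at the first of these, where db/db replicate 3 had 3.9 and db/+ replicate 3 had 18. Leaving out db/db replicate 1, the highest Apoa1 array at all 4 probe sets, gave 0.60 at the brightest and 0.14 at the probe set with overlapping groups.

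The opposite directions of Apoa1 and the 2 lower liver genes were set side by side within each array, a comparison chosen after these values were seen. The change of Apoa1 exceeded that of Apoa2 by 2.25 on the log2 scale and that of Apoc3, its neighbour on chromosome 9, by 1.63. In both, the array differences did not overlap between genotypes. The pairs were picked for their opposite directions, so that these values are a description with no test.

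The other liver-restricted genes had low signals throughout. Apob, the core protein of triglyceride-rich particles, had 39.3 and 31.3 in db/+ and 19.3, 40 and 21.5 in db/db, with overlapping groups and a log2 change of −0.28. The 2 probe sets of Apoa4, an intestinal protein of chylomicrons, had signals from 1.4 to 4.3 and from 5.2 to 30.7 over the 5 arrays, and log2 changes of 0.06 and 0.15. Both genes lay under the filter and were not tested. In the fit with no filter their smallest adjusted p was 0.86.

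Apoe had signals of 1991.6 and 2338.7 in db/+ and 1160.8, 997.8 and 1314.4 in db/db. The highest db/db pool was below the lower db/+ pool. The mean was 1158 ± 158 (SD, n = 3) in db/db and 2165 ± 245 (SD, n = 2) in db/+, which is 1.87 times lower, with a log2 change of −0.90 (SE 0.18, 95% interval −1.31 to −0.49, limma adjusted p = 0.16). Apod had 200.1 and 236.8 in db/+ and 139.8, 137.1 and 115.8 in db/db, again without overlap (log2 change −0.67, SE 0.17, limma adjusted p = 0.27). In RNA of a whole tissue, fewer cells of a type and less RNA per cell cannot be told apart.

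Apoc1, a small inhibitor of lipoprotein uptake, lies next to Apoe in the gene cluster on chromosome 7. It had 397.3 and 530.7 in db/+ and 368.8, 785.6 and 604.6 in db/db, so that the groups overlapped. Its log2 change was 0.28 (SE 0.30, limma adjusted p = 0.87), with a 95% interval from −0.40 to 0.95. Leaving out 1 pool at a time moved this log2 change to 0.04 (db/db replicate 2 left out), 0.08 (db/+ replicate 2), 0.22 (db/db replicate 3), 0.48 (db/+ replicate 3) or 0.57 (db/db replicate 1). No difference between Apoc1 and Apoe was tested. Tomm40, the gene on the far side of Apoe, differed by 0.23 (log2, SE 0.16, limma adjusted p = 0.79). Apoc2, the activator of lipoprotein lipase, lay under the filter, with 55.9 and 44.4 in db/+ and 5.3, 29.5 and 8.2 in db/db. Its db/db pools were all below the db/+ pools, and the log2 change of −1.20 had an adjusted p of 0.52 in the limma fit with no filter.

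**Figure D2:**
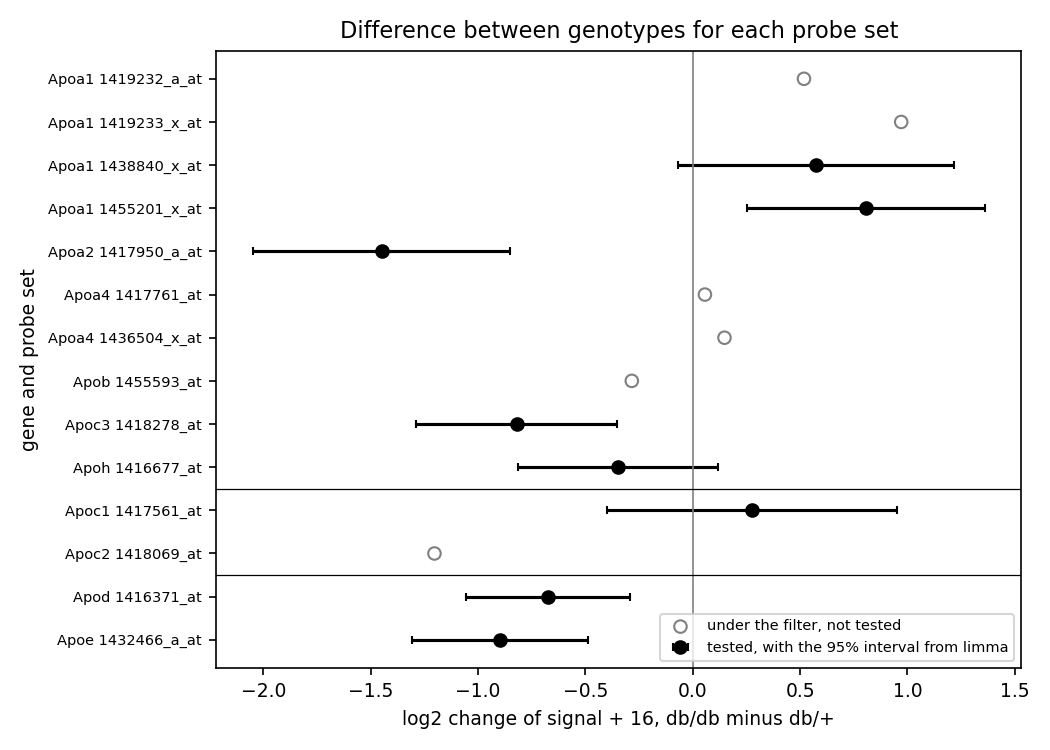
Log2 change of signal + 16, db/db minus db/+, for the 14 apolipoprotein probe sets, in the order liver-restricted, liver and macrophage, vessel wall, separated by lines. Filled points are the 8 tested probe sets with the 95% interval from limma, unadjusted for multiple testing, and open points are those under the filter. Intervals of Apoa2, Apoc3, Apod and Apoe lie below 0, that of the brightest Apoa1 probe set lies above 0, and the other 3 include 0.

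By class, with the brightest probe set for each gene and no filter, the liver-restricted genes did not move one way. Of the 6, 4 had negative and 2 positive log2 changes, from −1.45 for Apoa2 to 0.81 for Apoa1, with a median of −0.32. Both vessel wall genes had negative log2 changes, with a median of −0.79, and Apoc1 and Apoc2 had 1 of each sign. The median was 0.016 over all probe sets tested and −0.51 over the 10 genes. The liver-restricted median was −0.30, −0.23 and −0.43 in db/db replicates 1, 2 and 3, against −0.74, −0.86 and −0.77 for the vessel wall genes. The liver-restricted medians include Apob and Apoa4, which lay under the filter. Over the 4 liver-restricted genes that were tested, the median was −0.58, and −0.25, −0.77 and −0.73 in db/db replicates 1, 2 and 3, so that in replicates 2 and 3 it lay close to that of the vessel wall pair. As a deviation from the db/+ mean, Apoa2 lay below both Apoe and Apod in all 3 db/db pools. In replicate 1 it was nearly level with Apoe (−0.90 against −0.89). No test was made between the classes.

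Genes listed for hepatocytes, other than apolipoproteins, were measured in the same arrays. Which cells their signals came from was not tested, nor was the part of liver RNA in the values above. Of 36 hepatocyte genes listed, 30 were measured and 19 tested, each at its brightest probe set, with 2 called lower and 0 higher. At an unadjusted limma p under 0.05, 11 were lower and 3 higher. Over all probe sets tested, 0.0958% were called, and 4.19% were lower and 3.97% higher at that unadjusted p. The same shares are the background for each list below. Albumin, Alb, a plasma protein, was called, with 420.4 and 525.9 in db/+ and 110.2, 82.2 and 72.3 in db/db (log2 change −2.24, SE 0.20, limma adjusted p = 0.0087). The other called gene was the methyltransferase gene Bhmt (−1.93, SE 0.22, adjusted p = 0.026). The brightest probe set of the protease inhibitor gene Serpina1b did not pass (−1.29, SE 0.20, adjusted p = 0.066). A dimmer Serpina1b probe set, which does not enter the list counts, was called lower (−2.17, SE 0.21, limma adjusted p = 0.014). Neither Alb, Bhmt nor any other listed gene was called without db/+ replicate 2 or without db/+ replicate 3. Over the 30 genes, 23 had negative log2 changes and 7 positive ones, with a median of −0.52. Their summed signal lay between 3639 and 4400 in db/db and between 4870 and 6348 in db/+. The sum adds signals of different probe sets and is carried by a few bright genes, among them the haptoglobin gene Hp, with 1616.2 and 2615.1 in db/+ and 1098.3, 1410.6 and 1239.7 in db/db. Cyp2e1 and Itih4, bright genes that pointed the other way, had log2 changes of 0.86 and 0.78 (limma adjusted p = 0.34 and 0.57). Of the fibrinogen chain genes, all under the filter, Fgb had signals from 1.3 to 3.4 over the 5 arrays. Fgg had 21.7 and 23.5 in db/+ and 15, 3.7 and 2.5 in db/db (log2 change −0.78), and Fga had a log2 change of −0.50. The db/db pools lay below the db/+ pools at all 3 chain genes, beside 12.0% of all probe sets tested. That share is of probe sets above the filter, while the 3 lay under it, so that the 2 are not alike. Fgb was near the floor in every array (log2 change −0.12), so that its order says little. The 3 chain genes, Hp, Cyp2e1 and Itih4 were chosen after their values were seen.

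Enterocyte markers, which would accompany intestinal Apoa4, had 10 measured genes, of which 5 had a mean signal under 16. Fabp2, the intestinal fatty acid binding protein, had a mean signal of 5.70 in db/db and 4.70 in db/+. The 2 tested, Mep1a and Anpep, had log2 changes of 0.10 and 0.06 (adjusted p = 0.93 and 0.97), neither below an unadjusted p of 0.05, and the list had a median of 0.06. Summed signals were 221.7 to 289 in db/db and 214.7 to 243.2 in db/+. Of cardiomyocyte markers, a further source of Apob, 0 of 12 passed, also at an unadjusted limma p under 0.05, and their sum ranged from 851.7 to 4536 in db/db, highest in replicate 2, and from 1402 to 1845 in db/+. Nppb, Myl3 and Myl2 had log2 changes of 0.67, −1.19 and −0.81.

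Macrophage markers had lower summed signals in db/db. Of the members made by macrophages, Apoe and Apoc2 (under the filter) were lower, while Apoc1 had overlapping groups and a log2 change of 0.28. The summed signal of the 21 measured markers of 22 lay between 4323 and 4850 in db/db and between 7568 and 9116 in db/+, and 18 of the 21 had negative log2 changes (median −0.61). None of the 17 tested was called by limma. At an unadjusted p under 0.05, 15 were lower and 0 higher, beside 4.19% and 3.97% of all probe sets tested. Of the 21, 0 had a mean signal under 16. Besides Fcer1g, the lectin Lgals3 and the lysozyme gene Lyz1 had log2 changes of −1.15 and −1.33 (limma adjusted p = 0.056 and 0.058). The 3 markers with positive log2 changes were Laptm5 (0.23, higher in db/db without overlap), Msr1 (0.28) and Aif1 (0.04), the last 2 under the filter. The groups overlapped at Adgre1 (−0.32). These 4 were named after their values were seen. The sum adds signals of different probe sets, and Lyz1 alone had a mean of 750 in db/db and 1896 in db/+. The part of macrophage RNA in the Apoe value was not tested. Endothelial markers, too, had a negative median (−0.41 over 12 genes, 0 of 11 tested called), led by Pecam1, Vwf and Esam at −0.84, −0.57 and −0.48. At an unadjusted p under 0.05, 6 were lower, beside 4.19% of all probe sets tested. The groups overlapped at the tested genes Nos3, Eng, Cdh5 and Kdr, at −0.21, −0.12, −0.06 and 0.04. These were named after their values were seen. Sums over the endothelial list were 1969 to 2372 in db/db and 2723 to 3033 in db/+.

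Among the other cell types that make apolipoprotein D or E in the wall, fibroblast and adventitia markers had a median of 0.13 (14 genes, 0 called), with summed signals of 24771 to 29771 in db/db and 24728 to 27228 in db/+, and Clec3b, Cd34 and Pdgfra had log2 changes of 0.46, 0.32 and −0.30. Schwann cell and nerve markers had a median of 0.18 (9 genes, 0 of 8 tested called), and sums of 3170 to 3314 against 2810 to 3004. At an unadjusted limma p under 0.05, 0 of the fibroblast, nerve or smooth muscle markers passed. Of the 9 Schwann cell and nerve markers, 4 had negative and 5 positive log2 changes. Those with the smallest p were Th and Dbh, enzymes of noradrenergic nerves, and Ncam1, at 0.36, 0.30 and 0.23, while the glial genes S100b, Mbp and Sox10, named after their values were seen, had −0.29, −0.28 and −0.18. Smooth muscle markers had a median of 0.19 (12 genes, 0 called), with sums of 31427 to 39507 against 29588 to 32930, and Lmod1, Smtn and Synpo2 at 0.36, 0.32 and 0.50.

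Fat is a further source of Apoe, and markers of it were measured in every array, although periaortic fat had been removed. Of 10 measured white adipocyte markers, 1 was called, the leptin gene Lep (−2.96, SE 0.25, limma adjusted p = 0.0064), and the median was −0.29. Of the 10, 9 had negative log2 changes and 1, the resistin gene Retn, a positive one. At an unadjusted limma p under 0.05, 3 were lower and 1 higher, beside 4.19% and 3.97% of all probe sets tested. Retn and Cebpa had log2 changes of 0.49 and −0.46. Their summed signal was 9056 to 13860 in db/db and 13009 to 13618 in db/+, lowest in db/db replicate 1. Brown adipocyte markers had a median of 0.07 (9 genes, 0 of 8 tested called, 1 higher at an unadjusted limma p under 0.05), with sums from 5894 to 11427 against 7460 to 8496, and Elovl3, Ppara and Ucp1 at 1.16, −0.34 and 0.29. Their part in the Apoe value was not tested.

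**Figure D3:**
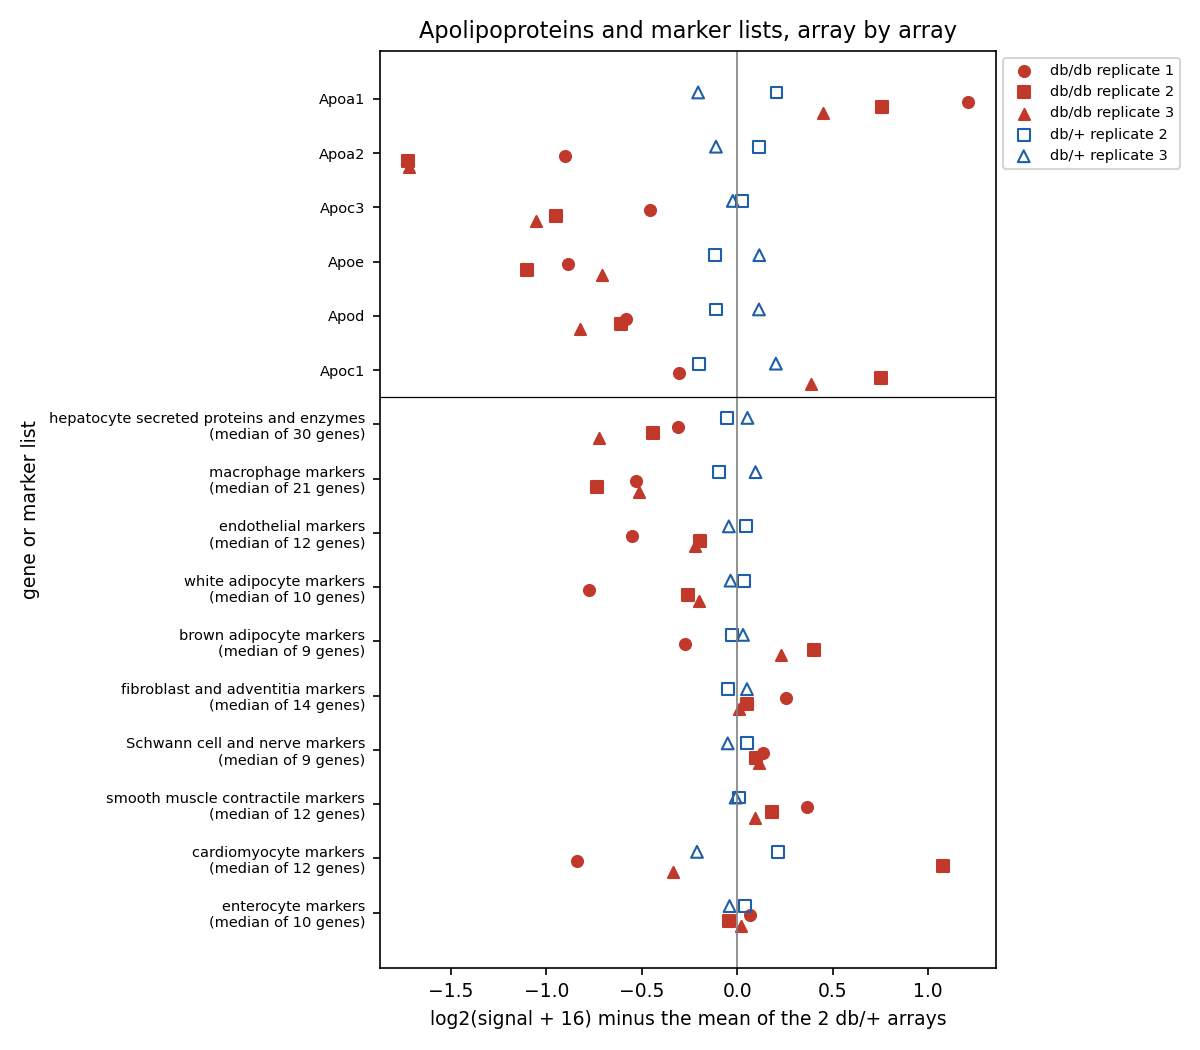
Log2(signal + 16) of each array minus the mean of the 2 db/+ arrays, for 6 apolipoprotein genes (brightest probe set) and, below the line, the median of 10 marker lists, with db/db as filled red and db/+ as open blue symbols. Apoe and Apod lie to the left in all 3 db/db arrays, as do the hepatocyte, macrophage, endothelial and white adipocyte medians. The fibroblast, nerve and smooth muscle medians lie to the right of 0 in all 3, and the brown adipocyte, cardiomyocyte and enterocyte medians lie on both sides.

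The profiles most like those of 3 members were found by the smallest root mean square difference of centred log2 values over the 5 arrays. For Apoe these were Svep1, a large matrix adhesion protein, Ltc4s, the leukotriene C4 synthase, and Comp, a cartilage matrix protein, with differences of 0.098, 0.099 and 0.10. Their log2 changes were −0.82, −0.76 and −0.94. For Apod they were the transporter gene Abcg2, the matrix protease gene Mmp3 and Armh4, with differences of 0.045, 0.049 and 0.054 and log2 changes of −0.60, −0.74 and −0.65. For Apoa1 they were Fcho1, Lefty1 and Ak4, with differences of 0.075, 0.091 and 0.11 and log2 changes of 0.77, 0.70 and 0.69. Their limma adjusted p ranged from 0.14 to 0.53.

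Genes that act with the apolipoproteins gave no calls. Of 16 lipoprotein receptor genes, 13 were measured and 8 tested, with 0 called. At an unadjusted p under 0.05, 1 was higher, beside 3.97% of all probe sets tested. It was the very low density lipoprotein receptor gene Vldlr (0.54, SE 0.21, limma adjusted p = 0.57). The scavenger receptor genes Stab1 and Cd36 had −0.38 and −0.60 (adjusted p = 0.63 and 0.67). The median was 0.07 over the 13. In the list for lipoprotein assembly, lipases and cholesterol efflux, 13 of 17 were measured, 11 tested and 0 called, with 1 lower at an unadjusted limma p under 0.05. Angptl4, a secreted inhibitor of lipoprotein lipase, had 823.3 and 805.7 in db/+ and 246.1, 329.4 and 359.3 in db/db. Its log2 change of −1.36 (SE 0.19) did not pass (limma adjusted p = 0.056, and 0.19 in the limma fit with no filter). The cholesterol exporter Abcg1 and the lysosomal lipase Lipa had −0.25 and −0.24, and the list's median was −0.06.

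Among 11 other apolipoprotein genes, all measured and 4 tested, 0 were called, 1 was lower at an unadjusted limma p under 0.05 and the median was −0.07. The acute-phase gene Saa3 had 51.9 and 256.5 in the db/+ pools and 62, 38.8 and 41.8 in db/db, so that its log2 change of −1.12 (SE 0.49, limma adjusted p = 0.61) followed db/+ replicate 3. Clu, the gene of apolipoprotein J, and Apon had 0.31 and 0.23 (adjusted p = 0.75 and 0.83). Apoa5 and Apoc4, the further members of the clusters around Apoa1 and Apoe, were under the filter, with log2 changes of −0.31 and −0.62. Of 17 transcription factors that act on apolipoprotein genes, 15 were measured, 10 tested and 0 called, with a median of −0.25. At an unadjusted p under 0.05, 2 were lower and 1 higher, beside 4.19% and 3.97% of all probe sets tested. The retinoid X receptor gene Rxra had 0.51 (limma adjusted p = 0.41), and the adipocyte regulators Cebpa and Pparg had −0.46 and −0.94 (adjusted p = 0.61 for each).

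The arrays were alike in scale, with 2% trimmed means from 150.049 to 150.053 and median signals from 59 to 61.5. Correlations of log2 signals between arrays lay between 0.951 and 0.976. Actin signal at the 3' over the 5' end, which rises as RNA degrades, was 1.14 to 1.32 in db/db and 1.28 to 1.34 in db/+. Lepr itself differed by 0.26 on the log2 scale (SE 0.17, limma adjusted p = 0.77) at its brightest probe set, which does not check the genotype, since the mutation alters splicing. Of 2 dimmer Lepr probe sets under the filter, 1 had 4.6 and 6.1 in db/+ and 35.5, 23.3 and 23.7 in db/db (log2 change 1.02, adjusted p = 0.26 in the limma fit with no filter). The other had overlapping groups and a log2 change of 0.25.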

How the data were processed

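The series table deposited by the authors held a linear signal intensity for each probe set in 3 db/db and 2 db/+ arrays; the submitters' processing notes name MAS5. MAS5 background correction makes low signals imprecise, and its detection calls were not used here. A genome build is not stated in the sources used. The number of arrays limits the precision. The platform annotation named the probe sets: after 64 controls were left out, 20380 of 22626 had 1 symbol, 691 several and 1555 none.

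Values were taken as log2(signal + 16) without further scaling. Probe sets above the 40th percentile of the mean signal (40.6) were fitted with limma 3.58.1 in R 4.3.3 (lmFit, eBayes, two-sided, db/db minus db/+, no covariates), with Benjamini-Hochberg adjustment over all 13574 and 3 residual degrees of freedom. The test was tried on simulated data. The probe set with the highest mean stood for a gene. The members and lists were chosen with earlier results of these data known. Named genes were all members, up to 3 per list by smallest p, and the 3 nearest profiles of Apoe, Apod and Apoa1. Alternatives covered the pseudocount, filter, scaling, fit, replicate number as a block, and each array left out.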

Additional observations from a re-analysis of the deposited data

How the results depend on the processing

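The 13 calls over all probe sets became 3 and 37 with pseudocounts of 1 and 64, 1 with no filter, 35 with a filter at the 60th percentile, 21 with median centring, 41 with trend and robust eBayes, 48 with array weights and 49 at an adjusted p under 0.1. Leaving out each array in turn gave 1 to 13 calls, with 1 each without db/+ replicate 2 or 3. Of the apolipoprotein probe sets, 0 were called as reported and 1, Apoa2, with array weights. Leaving out each array gave 0 to 1, the 1 being Apoa2 without db/db replicate 1. The 3 calls in the gene lists (Alb, Bhmt and Lep) became 1 and 9 with pseudocounts of 1 and 64, 0 with no filter, 7 with the 60th percentile, 6 with median centring, 9 with trend and robust eBayes, 8 with array weights and 6 with a gene's probe sets averaged. They ranged from 0 to 5 with each array left out, with 0 without db/+ replicate 2 or 3.

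The labels share replicate numbers 2 and 3 between genotypes but do not say that they pair pools. Deviations of same-numbered arrays correlated at 0.11 and 0.00051. With 2 db/+ arrays, the deviations from their mean mirror each other. The values for differently numbered arrays are thus fixed as these with the sign turned, and they cannot settle whether the numbers pair pools. A block on replicate number leaves db/db replicate 1 without a partner, so that it does not bear on the estimate, and 22 probe sets, 1 apolipoprotein (Apoa2, log2 change −1.72, adjusted p = 0.023) and 5 list members were called under that pairing.

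No tested apolipoprotein probe set changed sign under any alternative in which it was tested. Where the arrays did not overlap, leaving out or reweighting arrays could not change the sign. Both Apoa4 probe sets, under the filter, did change sign. Their log2 changes were −0.014 without db/+ replicate 3 at one and −0.21 without db/db replicate 2 at the other. The log2 change of Apoe ranged from −1.01 to −0.78, with adjusted p from 0.071 to 0.91, and that of Apoa2 from −1.72 to −1.13, with adjusted p from 0.019 to 0.64. The liver-restricted median exceeded the vessel wall median by 0.47, and by 0.37 to 0.57 under the other alternatives. With only the 4 liver-restricted genes that passed the filter, an alternative added after seeing the data, the gap was 0.20, since Apob and Apoa4 drop out. A filter on mean log2 signal, added after seeing the data, gave 11 calls and 0 apolipoproteins. Signals under the filter limit what can be said of Apob, Apoa4 and Apoc2.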
